A study of Mus musculus with 4 samples.

Results

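The 32 genes described here belong to the unfolded protein response and the integrated stress response, taken as listed gene rows that were present in both deposited matrices, 32 of 22631 gene rows. They fall into 14 ER folding genes, 4 genes of ER-associated degradation, 6 sensors and transcription factors, and 8 Atf4-target and stress response genes. The cells were migratory dendritic cells (DCs) of the ear-draining lymph node, sorted as B220- CD11cint MHCIIhi, from Tnfsf4KI/+ mice. In these mice the gene for OX40L, Tnfsf4, carries a blue fluorescent protein (BFP) reporter on 1 allele, and both treated and untreated animals carried it. The treated group was MC903 BFP+ and MC903 BFP- DCs, from ears given MC903 (calcipotriol, a vitamin D analogue used to produce TSLP-driven skin inflammation) on days 0, 2 and 4, with nodes taken on day 5. The other group was untreated BFP+ and untreated BFP- DCs from mice whose ears received no treatment. Each treatment was 1 capture of droplet single-cell RNA sequencing (10x 3′ v3), with 5000 BFP+ and 7000 BFP- sorted cells told apart by hashtag antibodies. Each population was therefore 1 pool with no replicate, no test between populations was possible, and treatment cannot be told apart from capture, library and sequencing lane. Age, sex and the number of mice per pool are not given in the sources used here.

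When unfolded proteins gather in the endoplasmic reticulum (ER), 3 membrane sensors respond. Atf6 and the Xbp1 factor made downstream of Ern1 (IRE1) switch on chaperone and degradation genes, while Eif2ak3 (PERK) phosphorylates eIF2α, lowers general translation and favours translation of Atf4. Atf4 is also used by other eIF2α kinases in the integrated stress response, and it drives genes of amino acid import, redox balance and recovery of translation. In DCs, the IRE1 and Xbp1 branch is known for keeping the ER of cDC1 cells in order. A 3′ library counts 1 tag per transcript, so neither Xbp1 splicing nor eIF2α phosphorylation nor Atf4 translation was measured here.

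Promoter sequences are shown because the chaperone genes and the Atf4-target genes held different elements. RefSeq promoters (GRCm38.p6, 250 bases before to 50 after the start) were found for 29 of the 32 genes, all but Manf, Hyou1 and Atf6. The ER stress response element ERSE, searched as CCAAT and CCACG 9 bases apart on both strands, was held by 7 of 12 ER folding promoters, 1 of 4 ER-associated degradation promoters, 0 of 5 sensor promoters and 0 of 8 Atf4-target promoters, against 0.119% of all 32851 promoters in the table. The ERSE matches of 6 chaperone genes are printed 5′ to 3′ on the gene's strand, with the match in capitals. Those of Calr and the second one of Hsp90b1 read on the opposite strand.
Hspa5, chr2:34772020-34772048 (+): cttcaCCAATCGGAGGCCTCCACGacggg
Hsp90b1, chr10:86705633-86705661 (-): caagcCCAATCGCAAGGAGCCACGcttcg
Hsp90b1, chr10:86705528-86705556 (-): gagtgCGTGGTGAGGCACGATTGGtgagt
Calr, chr8:84847070-84847098 (-): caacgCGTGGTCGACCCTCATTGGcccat
Canx, chr11:50325795-50325823 (-): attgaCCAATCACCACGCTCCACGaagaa
Pdia6, chr12:17266486-17266514 (+): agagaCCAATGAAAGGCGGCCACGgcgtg
Dnajc3, chr14:118937822-118937850 (+): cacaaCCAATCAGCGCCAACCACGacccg

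The amino acid response element bound by Atf4 with C/EBP partners (CARE, searched as TGATG and AA 1 base apart on both strands) was held by 5 of 8 Atf4-target promoters (Trib3, Chac1, Asns, Slc7a11 and Nupr1), 1 of 4 ER-associated degradation promoters (Herpud1) and 0 of 12 ER folding promoters, against 3.97% of all promoters. Herpud1, a membrane protein of the degradation complex, held both a CARE and an ERSE-II, searched as ATTGG and CCACG 1 base apart, which 2 of the 29 promoters held (the other was Dnajb11) and 0.0365% of all. The Xbp1 element searched as TGACGTGG was in 0 of the 29 and in 0.676% of all promoters. No match overlapped one of another motif. A match is a description of these letters, not evidence of a bound site. The printed stretches of Hspa5, Nupr1 and Asns overlap exons of their own gene in the GENCODE annotation, which begins those genes before the RefSeq start used here. The CARE and ERSE-II matches of the genes that the results turn on are printed likewise, with capitals for the match.
Slc7a11, chr3:50443661-50443690 (-): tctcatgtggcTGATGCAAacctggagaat
Slc7a11, chr3:50443642-50443671 (-): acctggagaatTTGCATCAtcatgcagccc
Nupr1, chr7:126625562-126625591 (-): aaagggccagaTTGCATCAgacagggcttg
Chac1, chr2:119351038-119351067 (+): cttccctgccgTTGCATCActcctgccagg
Asns, chr6:7693214-7693243 (-): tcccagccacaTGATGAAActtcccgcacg
Herpud1 CARE, chr8:94386306-94386335 (+): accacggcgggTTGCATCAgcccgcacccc
Herpud1 ERSE-II, chr8:94386368-94386396 (+): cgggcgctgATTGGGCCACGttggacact

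The MC903 capture held 6316 barcodes and 57148072 UMIs (unique molecules), and the untreated capture 9520 barcodes and 33525154 UMIs. Of 5636 and 8422 barcodes that passed the filters, 4307 MC903 and 5215 untreated barcodes were DCs by their markers (76.4% and 61.9%). MC903 BFP+ held 1294 DCs, MC903 BFP- 2901, untreated BFP+ 388 and untreated BFP- 3560, with median depths of 9930, 9314, 4841 and 2647 UMIs. The BFP transcript was higher in the BFP+ population of each capture. It had 99.6 CPM (the gene's UMIs scaled to a common library total) in MC903 BFP+ against 8.28 in MC903 BFP- DCs. In the untreated capture it had 65.7 CPM in BFP+ against 6.35 in BFP- DCs. A hashtag caller (HTODemux) drew the untreated populations otherwise, with 1535 BFP+ and 643 BFP- DCs, and in 11.9% of its BFP+ DCs the other hashtag dominated. The captures shared 21 barcode sequences among the barcodes that passed the filters.

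ER folding genes lay at similar levels in the 4 DC populations. Their summed level was 1225 CPM in MC903 BFP+ and 1276 CPM in MC903 BFP- DCs, and 1305 CPM in untreated BFP+ and 1424 CPM in untreated BFP- DCs. Hspa5 (ENSMUSG00000026864, chromosome 2, 34771970 to 34777547 in GRCm38), encoding BiP, the Hsp70 chaperone of the ER that also holds the sensors inactive, had 146 CPM in MC903 BFP+, 156 in MC903 BFP-, 134 in untreated BFP+ and 204 in untreated BFP- DCs. The untreated BFP- DCs stood above the other 3 populations, whose values lay within 134 to 156 CPM. Calr, the lectin chaperone calreticulin, which also serves the MHC class I loading complex, had 289 CPM in MC903 BFP+, 294 in MC903 BFP-, 318 in untreated BFP+ and 309 in untreated BFP- DCs, the narrowest spread of the 23 genes that reached 20 CPM in any population (highest over lowest 1.10).

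Hsp90b1, the ER Hsp90 (GRP94), had 137 CPM in MC903 BFP+, 141 in MC903 BFP-, 159 in untreated BFP+ and 163 in untreated BFP- DCs. Canx, the membrane partner of calreticulin, had 120.1, 130.1, 134 and 156 CPM in the same order of populations. Pdia3, the disulfide isomerase that works with both lectins, had 96.0, 109.7, 107 and 114 CPM. For all 3 genes the MC903 BFP+ DCs were lowest and the untreated BFP- DCs highest. The Hsp40 cochaperones did not share that order: Dnajb9, which acts on Ern1 through BiP, had 129, 129.7, 137 and 122 CPM, Dnajb11 had 43.7, 44.2, 52.2 and 45.7 CPM, and Dnajc3, known as an inhibitor of eIF2α kinases, had 48.5, 47.0, 47.5 and 53.4 CPM. Manf, a secreted ER stress protein, had 87.7, 89.7, 75.2 and 92.7 CPM. Pdia6 had 54.3, 54.1, 54.2 and 59.9 CPM and Sdf2l1, a cofactor of BiP, 46.2, 54.6, 49.1 and 65.0 CPM. Pdia4, Creld2 and Hyou1 stayed below 20 CPM, at 4.52 to 17.2 CPM, and all 3 were lower in both MC903 populations than in both untreated ones.

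**Figure D1:**
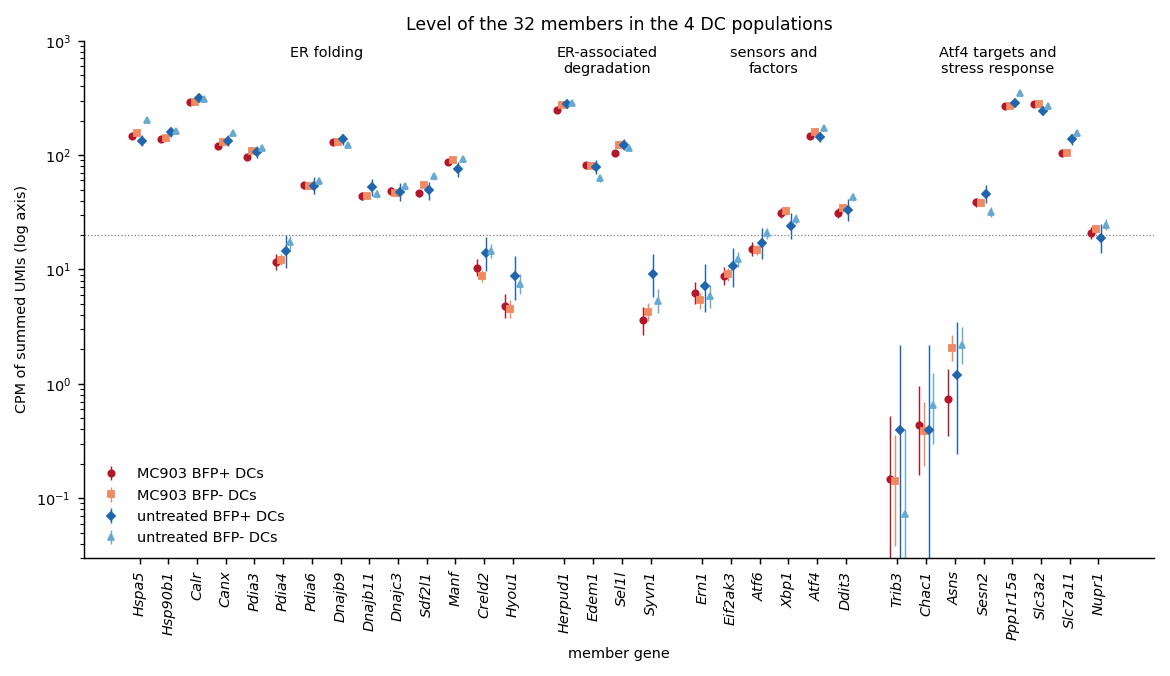
Level of the 32 genes (CPM of summed UMIs, log axis) in MC903 BFP+, MC903 BFP-, untreated BFP+ and untreated BFP- DCs, grouped by role, with 95% counting intervals and a dotted line at 20 CPM. The 4 populations lie close together for most genes, and Trib3, Chac1 and Asns lie far below the other stress response genes.

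Of the degradation genes, Herpud1 had 247 CPM in MC903 BFP+, 273 in MC903 BFP-, 277 in untreated BFP+ and 284 in untreated BFP- DCs. Sel1l, the adaptor that holds the Hrd1 ubiquitin ligase complex together, had 105, 122, 123 and 116 CPM in that order. Edem1, a lectin that hands misfolded glycoproteins to the complex, had 81.5, 79.9, 79.1 and 62.8 CPM. Edem1 was thus lowest in untreated BFP- DCs, the population in which Hspa5 was highest. Syvn1, the ligase Hrd1 itself, stayed at 3.58 to 9.10 CPM.

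Transcripts of the sensors were scarce and those of Atf4 were not. Ern1 lay at 5.37 to 7.12 CPM and Eif2ak3 at 8.77 to 12.3 CPM, and Atf6 had 15.1 CPM in MC903 BFP+, 14.8 in MC903 BFP-, 17.0 in untreated BFP+ and 20.7 in untreated BFP- DCs. Xbp1 had 31.4, 32.3, 24.1 and 27.6 CPM in that order, with both MC903 populations above both untreated ones. Atf4 had 148, 158, 144 and 171 CPM. Ddit3, encoding the CHOP factor of prolonged ER stress, had 31.1, 34.2, 33.2 and 42.9 CPM, so the untreated BFP- DCs were highest for both factors.

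Of the 8 Atf4-target genes, 5 reached 20 CPM, and Trib3, Chac1 and Asns gave few UMIs. Ppp1r15a (GADD34), which lets eIF2α be dephosphorylated, had 268 CPM in MC903 BFP+, 267 in MC903 BFP-, 285 in untreated BFP+ and 349.8 in untreated BFP- DCs. Slc3a2, the heavy chain shared by several amino acid transporters, had 281, 282, 244 and 269.6 CPM in that order, and its partner Slc7a11 (ENSMUSG00000027737, chromosome 3, 49892526 to 50443614), the light chain of the cystine importer xCT, had 104, 105, 137 and 156 CPM. The 2 chains of xCT did not share an order of levels: Slc7a11 was lower in both MC903 populations than in both untreated ones, and Slc3a2 was not.

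Sesn2, an mTORC1 inhibitor that senses leucine, had 38.7 CPM in MC903 BFP+, 38.1 in MC903 BFP-, 45.9 in untreated BFP+ and 31.8 in untreated BFP- DCs. For untreated BFP+ over untreated BFP- DCs its log2 ratio was 0.53 (0.22 to 0.83), but -0.33 (-1.11 to 0.37) with cells thinned to 2000 UMIs and -0.46 (-1.43 to 0.37) among cells of 2000 to 6000 UMIs. With median-of-ratios scaling it was 0.59, the 1 call of that comparison. Nupr1 (ENSMUSG00000030717, chromosome 7, 126623249 to 126630861), a small stress-induced chromatin protein, had 20.8, 22.5, 19.0 and 24.7 CPM. Trib3, a pseudokinase that restrains Atf4, gave 2, 4, 1 and 1 UMIs in the 4 populations, and Chac1, which degrades glutathione, gave 6, 11, 1 and 9 UMIs. Asns, asparagine synthetase, gave 10 UMIs in MC903 BFP+ and 59 in MC903 BFP- DCs, and 3 in untreated BFP+ and 30 in untreated BFP- DCs. At 0.731 against 2.07 CPM its log2 ratio between the MC903 populations was -1.50 (95% counting interval -2.63 to -0.52), at a level under the 20 CPM required for a call.

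The ratios between populations were small for nearly all of these genes. A gene was called when it reached 20 CPM in the higher population and differed at least 1.5-fold, and intervals given with log2 ratios are exact 95% intervals for counting error only, which do not cover differences between mice or captures. Of the 22 or 23 genes that reached 20 CPM, none was called between MC903 BFP+ and MC903 BFP- DCs, where 3.00% of all genes tested were called. None was called between MC903 BFP+ and untreated BFP+ DCs (7.91% of all genes) or between MC903 BFP- and untreated BFP- DCs (9.54% of all genes). Hspa5 alone was called between untreated BFP+ and untreated BFP- DCs (1 of 23, against 7.21% of all genes), a share near that of all genes. The median log2 ratio of the genes tested was -0.04 for MC903 BFP+ over MC903 BFP- (all genes -0.02), -0.17 for untreated BFP+ over untreated BFP- (all genes -0.01), -0.09 for MC903 BFP+ over untreated BFP+ (all genes -0.03) and -0.11 for MC903 BFP- over untreated BFP- DCs (all genes -0.03).

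**Figure D2:**
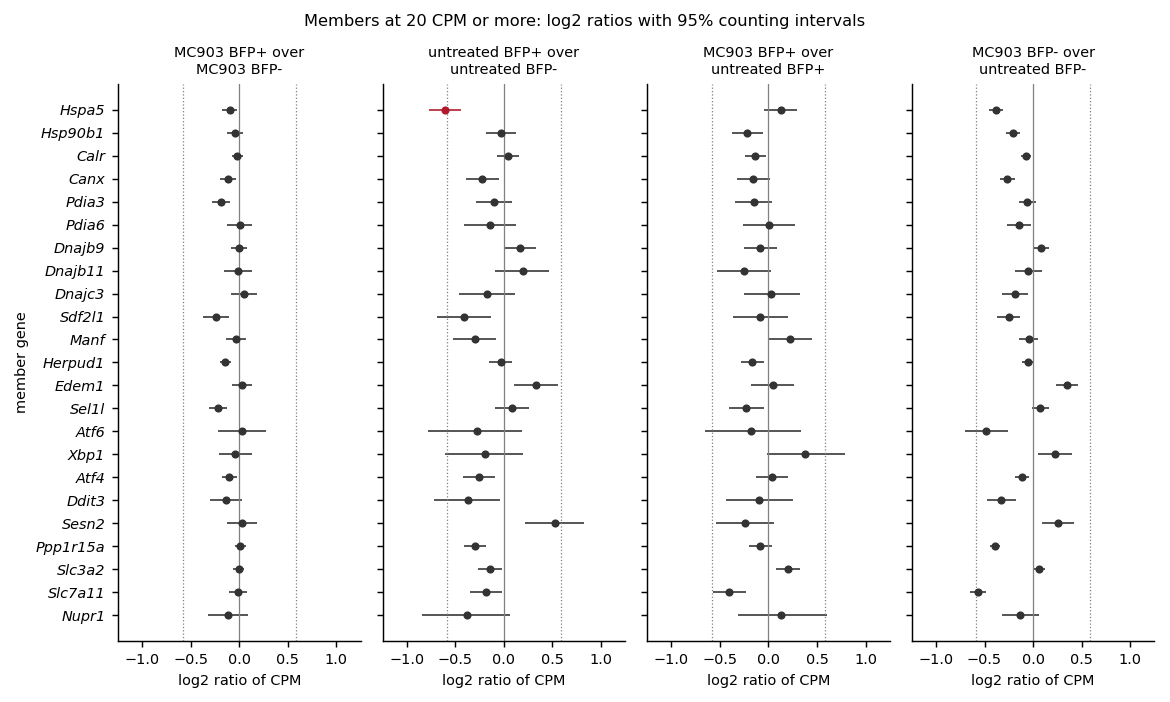
Log2 ratio of CPM with 95% counting intervals for the 23 genes that reached 20 CPM in any population, 1 panel for each pair of populations. Most points lie within 0.5 of 0, and Hspa5 in untreated BFP+ over untreated BFP- DCs (-0.61) and Slc7a11 in MC903 BFP- over untreated BFP- DCs (-0.57) lie farthest from it.

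The summed chaperone and Atf4-target levels differed little between populations. For MC903 BFP- over untreated BFP- DCs the summed ER folding genes had a log2 ratio of -0.16 (-0.18 to -0.13) and the summed Atf4-target genes -0.22 (-0.25 to -0.19), at 717 against 834 CPM for the second group. For untreated BFP+ over untreated BFP- DCs the ratios were -0.13 (-0.18 to -0.07) and -0.19 (-0.26 to -0.12). Summed degradation genes lay at 0.03 and 0.06 in these comparisons, with intervals that included 0. They were lower in MC903 BFP+ than in MC903 BFP- DCs (-0.13, -0.18 to -0.09) and than in untreated BFP+ DCs (-0.16, -0.25 to -0.07). Other scalings raised all log2 ratios together: for MC903 BFP- over untreated BFP- DCs the median of all genes was -0.03 on CPM, 0.08 with TMM and 0.09 with median-of-ratios factors, and the share of called genes that were higher was 49.6%, 65.4% and 66.8%. For MC903 BFP+ over untreated BFP+ DCs that share was 46.4%, 64.0% and 64.9%, and for untreated BFP+ over untreated BFP- DCs it was 42.1%, 52.5% and 55.6%. For MC903 BFP+ over MC903 BFP- DCs it was 43.1%, 53.0% and 54.2%.

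Hspa5 was lower in untreated BFP+ than in untreated BFP- DCs, at 134 against 204 CPM, which is -0.61 on the log2 scale (-0.77 to -0.44). In the MC903 capture the same pair stood at 146 against 156 CPM (-0.10, -0.18 to -0.02). MC903 BFP- DCs had less Hspa5 than untreated BFP- DCs (-0.38, -0.45 to -0.31), and for MC903 BFP+ over untreated BFP+ DCs the interval included 0 (0.12, -0.04 to 0.29). Among cells thinned to 2000 UMIs each, 21.8% of untreated BFP+ and 31.2% of untreated BFP- DCs kept a Hspa5 UMI. Thinning sets equal counts per cell but does not match cells by their depth before thinning. Untreated BFP- DCs were shallower (medians of 2647 against 4841 UMIs), and Hspa5 was highest in the shallowest untreated DCs. Over 14 alternatives, a band of like depth among them (medians of 2704 and 2684 UMIs), the log2 ratio was -0.64 to -0.14. The part of depth in its size was not tested. With the HTODemux populations the log2 ratio was -0.14 (-0.27 to -0.02), at 172 against 190.1 CPM, and the call was lost. The 1267 untreated DCs that no hashtag dominated had 55.6 CPM of BFP, near the 65.7 CPM of untreated BFP+ DCs, and 213 CPM of Hspa5, near the 204 CPM of untreated BFP- DCs. The call was also lost with TMM (-0.56) and median-of-ratios (-0.54) scaling and without the DC gate (-0.46).

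Other transcripts moved with Hspa5 in the untreated populations. Hspa1a and Hspa1b, heat-inducible cytosolic Hsp70 genes that cell isolation can induce, stood at 387 and 400.5 CPM in untreated BFP+ against 701 and 700.1 CPM in untreated BFP- DCs. Without the cells that held a UMI of either gene, the Hspa5 log2 ratio was -0.52. The 6 monocyte and macrophage markers (Lyz2, Csf1r, C1qa, C1qb, Ly6c2 and Fcgr1) summed to 100.1 CPM in untreated BFP+ DCs, with Fcgr1 at 0, against 311 CPM in untreated BFP- DCs, with none at 0, and 3 of the 3 that reached 20 CPM were called lower in BFP+. Without cells holding 3 or more UMIs of that list, the log2 ratio was -0.57 (-0.74 to -0.39). Both values lay just under the 1.5-fold mark. The summed Langerhans list was 162 against 399 CPM in the same pair.

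Of the 5 Atf4-target genes at 20 CPM, Slc7a11 differed most with treatment. MC903 BFP- DCs had 105 CPM against 156 CPM in untreated BFP- DCs (log2 ratio -0.57, -0.65 to -0.49), just under the 1.5-fold mark. MC903 BFP+ DCs had 104 CPM against 137 CPM in untreated BFP+ DCs (-0.40, -0.57 to -0.23). Slc7a11 also varied with the depth of the cell, over 4 depth classes holding equal numbers of DCs of a capture. From shallowest to deepest, it had 171, 131, 94.3 and 76.5 CPM in the MC903 capture. In the untreated capture it had 144, 112, 142 and 160 CPM, and no such decline was seen. The classes of the 2 captures cover different depths: they end at 7219, 9613 and 12470 UMIs in the MC903 and at 2109, 2643 and 3893 UMIs in the untreated capture. Between cells of 4000 to 8000 UMIs, 849 MC903 BFP- and 468 untreated BFP- DCs, the log2 ratio was 0.02 (-0.14 to 0.19), and for 297 MC903 BFP+ and 72 untreated BFP+ DCs it was -0.06 (-0.41 to 0.30). In that band the treatment difference was not seen, but the band takes shallower DCs of the MC903 and the deepest class of the untreated capture. Its BFP- medians were 6452 UMIs in MC903 and 5072 UMIs in untreated DCs, so it does not compare like parts of the captures. With cells thinned to 2000 UMIs the log2 ratio was -0.25 (-0.40 to -0.10) for the BFP- pair.

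Nupr1, Hspa5 and Sesn2 behaved otherwise by depth. Hspa5 had 156, 151, 145 and 158 CPM by depth class in MC903 DCs and 253, 196, 195 and 185 CPM in untreated DCs. Between cells of 4000 to 8000 UMIs, its log2 ratio for MC903 BFP- over untreated BFP- DCs was -0.36 (-0.52 to -0.20). Sesn2 had 40.7, 40.9, 37.3 and 36.8 CPM in MC903 DCs and 26.5, 37.0, 31.2 and 35.4 CPM in untreated DCs. Nupr1 had 15.2, 12.7, 15.3 and 32.3 CPM in MC903 DCs, where the deepest class stood apart, and 27.9, 27.0, 24.9 and 19.98 CPM in untreated DCs.

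**Figure D3:**
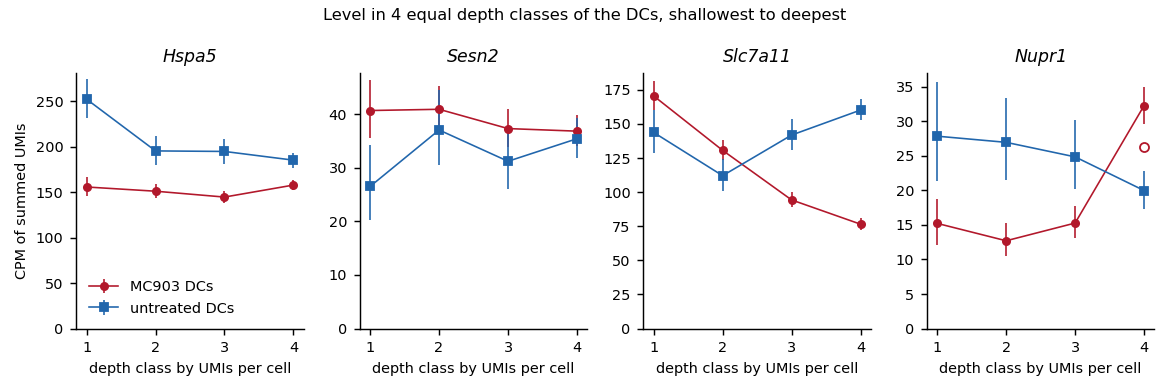
Level (CPM of summed UMIs with 95% counting intervals) of Slc7a11, Nupr1, Hspa5 and Sesn2 in 4 depth classes of equal numbers of DCs, shallowest to deepest, set within the MC903 and the untreated capture, so that a class covers different depths in the 2 captures. Slc7a11 declines across MC903 classes only, and the open circle shows Nupr1 in the deepest MC903 class (26.3 CPM) without barcodes over 50000 UMIs.

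The Nupr1 value of that class came in part from a single barcode. One MC903 BFP- DC barcode held 162867 UMIs, 69.0% of them from Bpifa2, Smr3a, Pip, Chia1 and Dnase1, secretory genes of salivary or related glands, and it held 109 of the 949 Nupr1 UMIs of all MC903 DCs. It also held 109 of the 127 Nupr1 UMIs of the 77 MC903 DC barcodes with 50 or more UMIs of those gland genes. In the other 76 of these Nupr1 had 20.5 CPM, near the 19.1 CPM of the 4230 MC903 DCs with fewer gland UMIs. No untreated DC barcode reached 50 gland UMIs. The 5 cells richest in Nupr1 held 24.0% of its UMIs among MC903 DCs, against 6.56% among untreated DCs, while for Slc7a11 they held 1.94% and 3.55%. Without the barcodes over 50000 UMIs, Nupr1 in MC903 BFP- over untreated BFP- DCs had a log2 ratio of -0.39 (-0.59 to -0.19), against -0.13 with them.

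Marker gates divided the DCs further. A gate took cells with 3 or more UMIs from 2 or more of its markers, which left 347 MC903 and 338 untreated Langerhans-like DCs (markers including Cd207, Epcam, Cdh1, Mfge8 and Xlr), and 189 MC903 and 88 untreated cDC1-like DCs (Xcr1, Clec9a, Cadm1, Tlr3, Itgae, Apol10b and Laptm4b). Only part of each list was raised, at 20 CPM or more and at least 2-fold over other DCs of the capture. Of the cDC1 markers, 3 of 7 were raised in each capture. Of the Langerhans markers, 3 of 6 were raised in the MC903 and 4 of 6 in the untreated capture. Another gate with Cd209a, Mgl2, Clec10a, Sirpa, Itgam and Clec4a4 took 89 MC903 and 108 untreated DCs. It is called here by Cd209a and Mgl2, because monocyte and macrophage markers were also raised in it: they summed to 1267 CPM against 75.9 CPM in other MC903 DCs, and to 2327 against 265 CPM in the untreated capture. Markers of dividing cells were also raised in the MC903 part of this gate, summing to 103 against 31.5 CPM. Plasmacytoid DC markers were raised in its untreated part, summing to 607 against 312 CPM. The part of these cells in the levels of the gate was not tested. The 5 further gates came from gene pairs or triplets that mark DC states in these libraries. Gate markers are not results, and a gate and its complement share a library.

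Langerhans-like DCs gave no call against other DCs. None of 22 was called in the MC903 capture (8.54% of all genes) and none of 24 in the untreated capture (8.16% of all genes). Hspa5 had 159 CPM in Langerhans-like against 152 CPM in other MC903 DCs, and 181 against 198 CPM in the untreated capture. Calr had 222 against 299.5 CPM in the MC903 capture (log2 ratio -0.43) and 274 against 323 CPM in the untreated one (-0.24).

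cDC1-like DCs of the MC903 capture held more Calr, Pdia3, Herpud1 and Ddit3 than other DCs. Calr had 479 CPM against 283 CPM in other MC903 DCs (log2 ratio 0.76, 0.67 to 0.85), and Pdia3, which like Calr is part of the MHC class I loading complex, had 179 against 101 CPM (0.83, 0.67 to 0.97). Herpud1 had 408 against 257 CPM (0.67, 0.57 to 0.76) and Ddit3 53.7 against 31.97 CPM (0.75, 0.46 to 1.02). Dnajb9 (81.2 against 131 CPM, -0.69) and Xbp1 (21.6 against 32.6 CPM, -0.59) were lower, so the ER folding genes did not all differ 1 way. These 6 calls, of 22 genes tested, made a share not far above the 21.6% of all genes called for this gate.

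In the untreated capture, cDC1-like DCs had 3 calls of 23 genes tested, a share near the 15.6% of all genes called. Pdia6 was lower at 37.1 against 61.5 CPM (log2 ratio -0.73), Atf6 at 11.5 against 20.1 CPM (-0.80, from 9 UMIs, with an interval of -1.94 to 0.14), and Slc7a11 at 84.4 against 149.7 CPM (-0.83, -1.20 to -0.48).

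DCs of the Cd209a/Mgl2 gate had more of several chaperones than other DCs. In the untreated capture Hspa5 had 428 CPM in the gate against 190.2 CPM in other DCs (log2 ratio 1.17, 0.97 to 1.37), Hsp90b1 296 against 159.7 CPM (0.89), Calr 538 against 312 CPM (0.79) and Pdia6 119 against 59.0 CPM (1.01). Pdia4, Sdf2l1, Herpud1, Syvn1 and Atf6 were also called higher, and Slc7a11 was called lower at 82.6 against 149 CPM (-0.85, -1.32 to -0.42). That is 10 of 26 genes tested, a share not far above the 31.0% of all genes. In the MC903 capture 6 of 22 genes tested were called, a share near the 25.7% of all genes. Higher were Hspa5 at 226 against 150.3 CPM (0.59), Canx at 193 against 125 CPM (0.63) and Pdia6 at 99.1 against 52.6 CPM (0.91). Xbp1 at 49.5 against 31.4 CPM (0.66) and Nupr1 at 37.8 against 21.0 CPM (0.85) were also higher. Ddit3 at 18.6 against 33.6 CPM (-0.85) was lower. Without cells holding 3 or more macrophage-list UMIs the gate kept 61 untreated and 67 MC903 DCs. The Hspa5 log2 ratio was then 0.85 (0.54 to 1.15) in the untreated and 0.32 (0.10 to 0.52) in the MC903 capture, so that the MC903 call was lost, as were those of Pdia6 (0.45) and Nupr1 (-0.17) there and of Calr (0.46) and Sdf2l1 (0.48) in the untreated capture. Canx (0.65) stayed past the 1.5-fold mark in the MC903 capture, but with cells thinned to 2000 UMIs it was 0.16 and Pdia6 0.11 there.

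**Figure D4:**
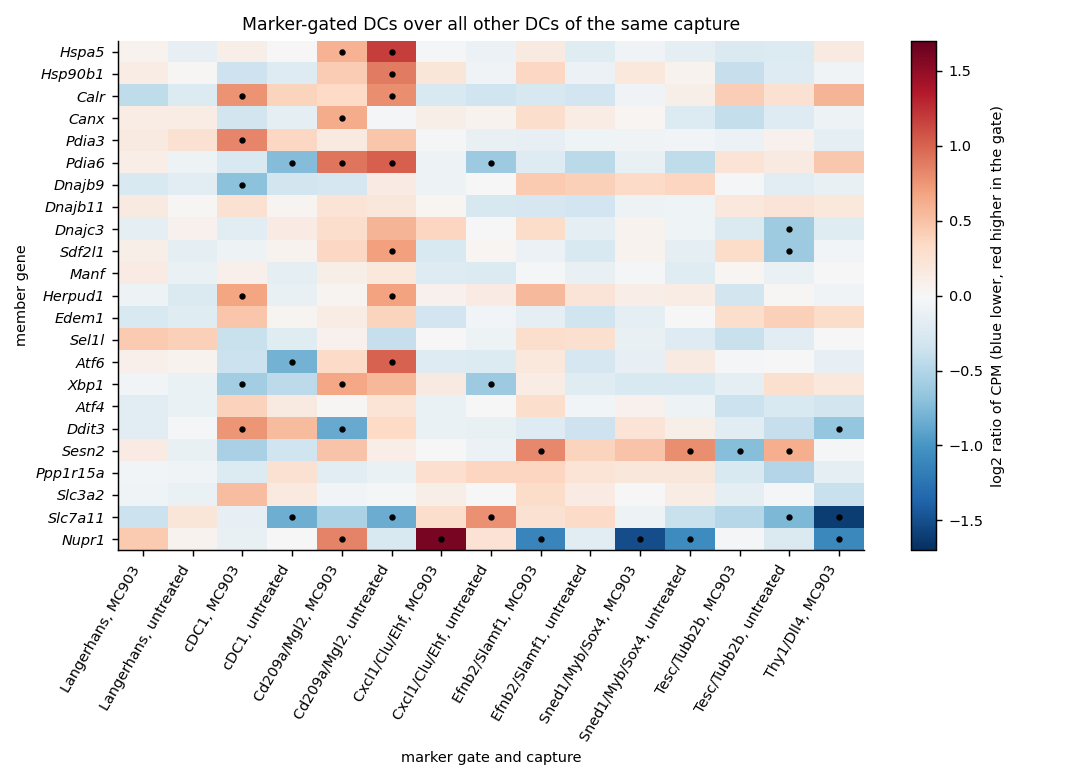
Log2 ratio of CPM for the 23 genes that reached 20 CPM in any population (vertical) in DCs of each marker gate over all other DCs of the same capture (horizontal), blue for lower and red for higher in the gate. The untreated Cd209a/Mgl2 gate is red for Hspa5, Hsp90b1, Calr and Pdia6, and the Thy1/Dll4 gate has the deepest blue for Slc7a11 (-1.62).

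In the other gates of the MC903 capture every call but that of Ddit3 was of a gene grouped here as Atf4-target and stress response. Ddit3 is grouped here with the sensors and transcription factors, which does not say whether it is an Atf4 target. In the Thy1/Dll4 gate (194 MC903 DCs) Slc7a11 had 35.5 CPM against 109 CPM in other MC903 DCs, a log2 ratio of -1.62 (-1.92 to -1.33) that was -1.55 among cells of 8000 to 16000 UMIs. Ddit3 (-0.65) and Nupr1 (-1.10) were also lower there, beside 24.2% of all genes called. In the Efnb2/Slamf1 gate (844 MC903 DCs) Sesn2 had 57.9 against 32.8 CPM (0.82, 0.67 to 0.97) and Nupr1 11.2 against 24.4 CPM (-1.13), with 9.15% of all genes called. In the untreated capture this gate had no call among 23 genes (4.58% of all genes).

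Nupr1 was low in the Sned1/Myb/Sox4 gate of both captures. It had 9.85 against 27.9 CPM in 1386 MC903 DCs (log2 ratio -1.50, -1.76 to -1.25, with 4.00% of all genes called) and 12.1 against 25.2 CPM in 522 untreated DCs (-1.07, -1.56 to -0.61, with 3.87% called). Without barcodes over 50000 UMIs the MC903 ratio was -1.32. Sesn2 was called higher in the untreated gate at 51.7 CPM (0.79), which was 0.14 among cells of 2000 to 6000 UMIs. In the Cxcl1/Clu/Ehf gate of 264 MC903 DCs Nupr1 had 56.8 against 18.6 CPM (1.61; 4.56% of all genes called), and without barcodes over 50000 UMIs the ratio was 0.51. In its 1230 untreated DCs Slc7a11 had 209 against 122 CPM (0.78, 0.67 to 0.89; 3.08% of all genes called), which was 0.31 among cells of 2000 to 6000 UMIs, and Pdia6 and Xbp1 were lower (both -0.62).

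Sesn2 differed in opposite directions in the Tesc/Tubb2b gate. It had 25.5 against 42.1 CPM in 814 MC903 DCs (log2 ratio -0.72, -0.92 to -0.53; 12.1% of all genes called) and 50.5 against 32.9 CPM in 133 untreated DCs (0.62, 0.17 to 1.04; 14.7% of all genes called), where the gate value rests on 49 UMIs. Slc7a11 (88.6 against 150.1 CPM, -0.76), Sdf2l1 (-0.62) and Dnajc3 (-0.60) were lower in the untreated gate.

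Within gates, treatment went with lower Slc7a11 in Langerhans-like DCs. Slc7a11 had 82.1 CPM in MC903 against 167 CPM in untreated Langerhans-like DCs (log2 ratio -1.02, -1.25 to -0.79), and -0.57 among cells of 4000 to 8000 UMIs. With Pdia4 (11.9 against 20.4 CPM, -0.78) it made 2 calls of 24 genes, where 10.5% of all genes were called. It was also called lower in MC903 DCs of the Cxcl1/Clu/Ehf gate (126 against 209 CPM, -0.73; 8.82% of all genes called), where Xbp1 (0.82) and Nupr1 (1.13) were called higher. Without barcodes over 50000 UMIs these were 0.55 and 0.03, and neither was called, and with cells thinned to 2000 UMIs the Slc7a11 ratio was -0.37 (-0.75 to -0.02). In the Efnb2/Slamf1 gate Slc7a11 (119 against 180.4 CPM, -0.60) and Nupr1 (11.2 against 20.6 CPM, -0.88) were lower, with 8.38% of all genes called. Among cells of 1 band of depth that Nupr1 ratio was 0.55 (-1.37 to 3.03). In DCs of no type gate there was no call (9.60% of all genes).

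cDC1-like DCs of the MC903 capture had more Herpud1 and Edem1 and less Ppp1r15a than untreated ones. Herpud1 had 408 CPM in MC903 against 256 CPM in untreated cDC1-like DCs (log2 ratio 0.67, 0.45 to 0.90) and Edem1 109 against 66.5 CPM (0.72, 0.28 to 1.18). Ppp1r15a had 230.0 against 392 CPM (-0.77, -0.98 to -0.56). These were 3 calls of 22 genes tested, a share under the 25.8% of all genes. In the Cd209a/Mgl2 gate 9 of 26 genes tested were called, 8 lower and Nupr1 higher in MC903 DCs. That share is near the 32.3% of all genes. Hspa5 stood at 226 against 428 CPM (-0.93, -1.18 to -0.67) and Hsp90b1 at 187 against 296 CPM (-0.66). Ddit3 stood at 18.6 against 51.9 CPM (-1.48, -2.31 to -0.66). The macrophage markers summed to 1267 CPM in the MC903 gate and 2327 CPM in the untreated gate, and their part in this was not tested. In the Sned1/Myb/Sox4 gate the 1 call was Atf6, lower at 14.1 against 21.5 CPM (6.50% of all genes). In the Tesc/Tubb2b gate Sesn2 was lower in MC903 DCs at 25.5 against 50.5 CPM (-0.99; 15.4% of all genes called).

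The reporter comparison could be made within the gates that held 50 or more DCs of each population, which the Langerhans-like, cDC1-like and Cd209a/Mgl2 gates did not. Among untreated DCs of no type gate, Hspa5 had 126 CPM in BFP+ against 201 CPM in BFP- DCs, where 7.74% of all genes were called. That is -0.67 on the log2 scale (-0.86 to -0.49). These DCs were 88.9% of the untreated DCs, at a median of 2543 UMIs. Shallow cells of the 3 types can fall short of the marker minimum and stay among them, so the part of cell type was not tested. Among MC903 DCs of no type gate no gene of the 32 was called (1.82% of all genes). In the untreated Sned1/Myb/Sox4 gate Sesn2 was higher in BFP+ at 69.5 against 45.5 CPM (0.61), and Ppp1r15a at 282 against 428 CPM (-0.60) and Slc7a11 at 81.6 against 138 CPM (-0.76) were lower, where 16.4% of all genes were called. In the Cxcl1/Clu/Ehf gate Sdf2l1 (29.4 against 48.9 CPM) and Nupr1 (25.2 against 68.2 CPM) were lower in MC903 BFP+ than in MC903 BFP- DCs (16.5% of all genes called). Without the barcode of 162867 UMIs Nupr1 stood at 25.2 against 27.0 CPM (log2 ratio -0.10), so that its difference rested on that barcode. The untreated pair of that gate had 3 calls, Eif2ak3, Xbp1 and Sesn2, whose intervals all included 0 (14.9%). MC903 BFP+ and MC903 BFP- DCs gave no call in the Efnb2/Slamf1 (3.38%), Sned1/Myb/Sox4 (2.99%) and Tesc/Tubb2b (1.69%) gates, and 1 in the Thy1/Dll4 gate, Ddit3 at 15.1 against 28.0 CPM (15.1% of all genes).

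Set against lymphocytes of the same captures, several ER folding genes were lower and several Atf4-target genes higher in DCs. Barcodes that passed the filters, lacked the DC markers and held B or T cell markers (309 and 215 in the MC903, 206 and 207 in the untreated capture) gave 4 comparisons. Most genes of any kind differed between these cells. Called were 21 of 26 genes in MC903 DCs over B cell-marked barcodes (64.3% of all genes) and 15 of 24 over T cell-marked barcodes (64.6%), and 21 of 28 (63.7%) and 16 of 24 (58.1%) in the untreated capture. DCs had less Hspa5 in each: 153 CPM in MC903 DCs against 486 CPM in B cell-marked and 372 CPM in T cell-marked barcodes (log2 ratios -1.67 and -1.28), and 196 CPM in untreated DCs against 668 and 435 CPM (-1.77 and -1.15). Pdia4, Pdia6, Dnajb11 and Manf were likewise called lower in DCs in all 4. The ER folding genes did not all differ 1 way. Dnajb9 was called higher in DCs in 3 of the 4 and lower in 0. Its log2 ratios were 1.21 and 1.41 over B and T cell-marked barcodes of the MC903 capture. Canx was called in 0 of the 4. Of the genes at 20 CPM in all 4 comparisons, 5 of 12 ER folding and 0 of 5 Atf4-target genes were lower in all 4, beside 15.5% of all genes.

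Slc7a11, Sesn2, Sel1l and Nupr1 were called higher in DCs in all 4 comparisons, and Herpud1 and Ppp1r15a in 3 of them. Slc7a11 had 104 CPM in MC903 DCs against 1.96 and 0.917 CPM in B and T cell-marked barcodes (2 UMIs and 1 UMI, log2 ratios 5.74, 3.88 to 8.78, and 6.83, 4.35 to 12.13), and 147 CPM in untreated DCs against 11.9 and 13.8 CPM (3.63 and 3.41). Sesn2 had 38.3 CPM in MC903 DCs against 3.91 and 7.33 CPM (3.29 and 2.38), and 33.8 CPM in untreated DCs against 6.78 and 5.52 CPM (2.32 and 2.61). Sel1l had 117 CPM in MC903 DCs against 25.4 and 25.7 CPM (2.20 and 2.19), and 117 CPM in untreated DCs against 50.9 and 52.4 CPM (1.21 and 1.16). Nupr1 had 21.6 CPM in MC903 DCs against 1.96 and 1.83 CPM (2 UMIs each, log2 ratios 3.46, 1.61 to 6.51, and 3.56, 1.699 to 6.60), and 22.9 CPM in untreated DCs against 4.14 CPM in T cell-marked barcodes (3 UMIs, 2.47, 0.91 to 4.75). It was at least 4.51-fold higher than in untreated B cell-marked barcodes, which held 0 UMIs, against a floor of 3 UMIs over the group. Of the genes at 20 CPM in all 4 comparisons, 3 of 5 Atf4-target, 1 of 3 degradation and 0 of 12 ER folding genes were higher in all 4, beside 19.6% of all genes.

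**Figure D5:**
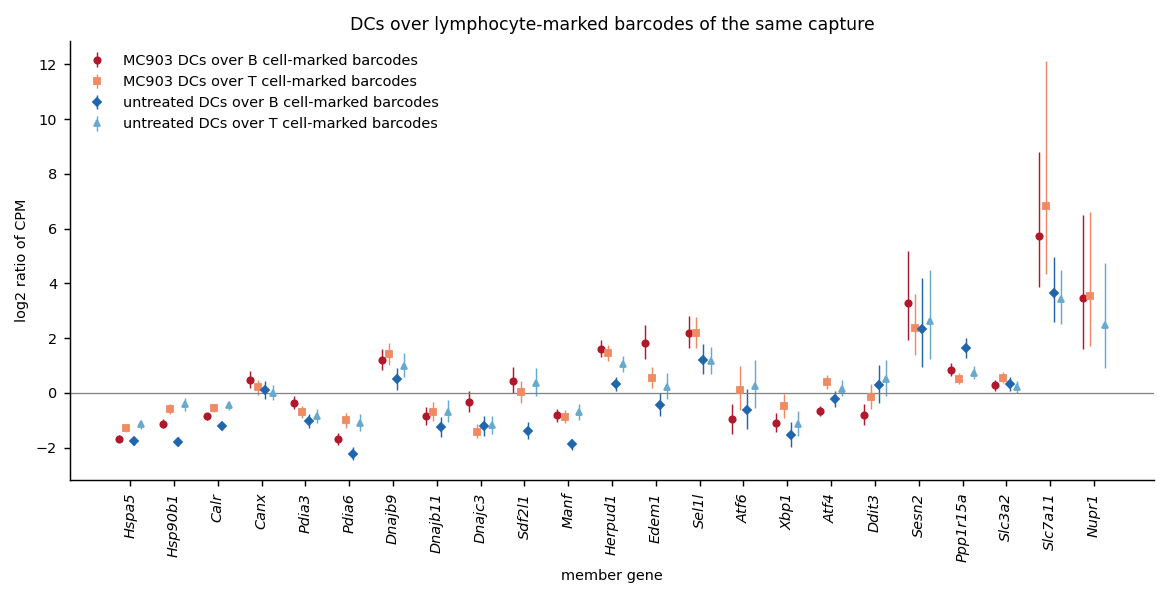
Log2 ratio of CPM with 95% counting intervals in DCs over B or T cell-marked barcodes of the same capture, for the 23 genes that reached 20 CPM in any population. Hspa5, Pdia6, Dnajb11 and Manf lie below 0 in all comparisons and Sel1l, Sesn2, Slc7a11 and Nupr1 above 0. The point of Nupr1 over untreated B cell-marked barcodes is left out, since it rests on 0 UMIs.

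The lymphocyte-marked barcodes were shallower than MC903 DCs (medians of 3089 and 4546 against 9614 UMIs) and near the untreated DCs (2478 and 2820 against 2644 UMIs). Fscn1, a DC gene, had 28.4 to 71.7 CPM in them against 2427 CPM in MC903 and 2036 CPM in untreated DCs, and the part of free RNA in the low levels there was not tested. Plasma cells were part of the untreated B cell-marked barcodes, where Jchain had 975 CPM. Mki67 and Top2a, genes of dividing cells, had 151 and 176 CPM there, against 2.93 and 10.8 CPM in MC903 B cell-marked barcodes. In T cell-marked barcodes they had 55.0 and 45.8 CPM in the MC903 and 15.2 and 12.4 CPM in the untreated capture. The part of dividing cells was not tested. Without barcodes holding 3 or more plasma cell UMIs, Jchain had 75.4 CPM in the untreated B cell-marked barcodes and the Hspa5 log2 ratio was -1.40. Mki67 and Top2a still had 121 and 123 CPM.

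In single cells these transcripts were sparse. After thinning each cell to 2000 UMIs, which left out 11, 35, 39 and 613 shallower DCs, Calr was found in 40.2% of MC903 BFP+, 40.0% of MC903 BFP-, 44.1% of untreated BFP+ and 42.4% of untreated BFP- DCs. Ppp1r15a was found in 38.1%, 37.8%, 38.7% and 46.5% and Sesn2 in 7.17%, 6.18%, 4.87% and 6.11% in that order, and Slc7a11 in 16.9% to 22.1%. Unthinned, Hspa5 was found in 68.1%, 68.1%, 50.3% and 45.0%, an order that follows depth and not level. Chac1 was found after thinning in 0 of 1283 MC903 BFP+ DCs, which allows a share of thinned DCs of up to 0.234%, in 2 of 2866 MC903 BFP- DCs, in 0 of 349 untreated BFP+ DCs, which allows up to 0.860%, and in 5 of 2947 untreated BFP- DCs. Unthinned, 0.386%, 0.310%, 0.258% and 0.253% of DCs held a Chac1 UMI in that order. As a background, Slc7a11 was found after the same thinning in 0 of 293 B cell-marked (up to 1.02% allowed) and 1 of 204 T cell-marked barcodes of the MC903 capture, and in 3 of 130 and 2 of 128 of the untreated capture, against 16.9% to 22.1% of DCs. Nupr1 was found in 0 of 293 and 1 of 204 of these MC903 barcodes and in 0 of 130 and 1 of 128 of the untreated ones, against 2.79% to 4.68% of DCs.

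A thinned DC held a median of 2 ER folding UMIs and 1 Atf4-target UMI in each population. DCs with no ER folding UMI made up 10.4% of MC903 BFP+ and 9.73% of MC903 BFP- DCs, and 8.88% of untreated BFP+ and 8.08% of untreated BFP- DCs. Over the thinned DCs of a capture, the variance over the mean of counts per cell was 1.65 for Slc7a11 and 1.91 for Nupr1 in MC903 DCs, and 1.59 and 1.30 in untreated DCs. Over all genes the median was 1.04 in MC903 DCs with a 95th percentile of 1.53, and 1.03 with 1.33 in untreated DCs. Herpud1 had 1.44 in MC903 and 1.21 in untreated DCs, and Sesn2 had 1.07 in both captures. By population the order differed: among untreated BFP+ DCs Herpud1 had 1.59 and Slc3a2 1.48, and Slc7a11 1.30.

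Wider gene lists of the same pathways are read against the same shares of all genes, 3.00% within the MC903 capture, 7.21% within the untreated capture, 7.91% between the BFP+ and 9.54% between the BFP- populations. Of 35 further ER folding and translocation genes, none was called within either capture (29 and 30 tested), and between captures 2 of 29 were called for BFP+ and 1 of 30 for BFP-. P4hb, a disulfide isomerase, was higher (57.2 against 38.0 CPM) and Ero1lb, an ER oxidase, lower (20.2 against 31.3 CPM) in MC903 BFP+ than in untreated BFP+ DCs, and Rpn1, a subunit of the glycosylation complex, was lower (10.2 against 20.6 CPM, log2 ratio -1.01) in MC903 BFP- than in untreated BFP- DCs. Of 17 further degradation genes with rows, none was called in any of the 4 comparisons (13 or 14 tested).

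Mthfd2, a mitochondrial folate enzyme and Atf4 target, was lower in BFP+ DCs of both captures. It had 66.1 CPM in MC903 BFP+ against 155 CPM in MC903 BFP- DCs (log2 ratio -1.23, -1.33 to -1.12) and 118 CPM in untreated BFP+ against 181 CPM in untreated BFP- DCs (-0.62, -0.80 to -0.45). It was the 1 gene called of 12 tested among further Atf4 and amino acid genes in the MC903 capture, and 1 of 3 called of 13 in the untreated capture, beside Cebpb and Atf3, where 7.21% of all genes were called. In MC903 BFP+ over untreated BFP+ DCs, Eprs was higher (96.6 against 62.1 CPM) and Mthfd2 and Atf5 (27.6 against 43.9 CPM) were lower. Cebpb, which pairs with Atf4 on CARE sites, was lower in MC903 BFP- than in untreated BFP- DCs (14.3 against 33.0 CPM, -1.20).

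Among kinases and regulators of the integrated stress response, Nfe2l2 (NRF2), a redox factor known to drive Slc7a11, was lower in both MC903 populations than in the untreated ones. It had 52.0 CPM in MC903 BFP+ against 90.6 CPM in untreated BFP+ DCs (log2 ratio -0.80, -1.02 to -0.58) and 63.8 CPM in MC903 BFP- against 110.0 CPM in untreated BFP- DCs (-0.79, -0.89 to -0.69). The Nfe2l2 ratios were not taken at equal depth, and a link to the Slc7a11 levels was not tested. Creb3 was also called in the BFP+ comparison (22.1 against 33.2 CPM). These were 2 of 7 genes tested for BFP+ (7.91% of all genes) and 1 of 8 for BFP- (9.54%). Heat shock and immediate early genes gave 3 lower calls of 23 in MC903 BFP- over untreated BFP- DCs (Nr4a1 at 23.4 against 51.8 CPM, Hspa1b at 367 against 700.1 CPM and Hspa1a at 439 against 701 CPM) and 2 higher calls of 23 in MC903 BFP+ over untreated BFP+ DCs (Jun at 706 against 372 CPM and Ier3 at 41.4 against 26.5 CPM).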

How the data were processed

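Single-cell 3′ libraries and hashtag libraries of 2 captures, MC903 and untreated, were analysed. The authors deposited raw UMI counts, which the file headers credit to Cell Ranger 3.1.0 and the submitters' processing notes to GRCm38 (mm10). No source states whether strand was used. Pdia3, Pdia6, Manf, Ddit3, Ppp1r15a and Syvn1 overlap coding genes on the other strand. Ddit3 also had another row of the same name with 0 UMIs, for a gene lying inside the first on the same strand. Only the first row was used, and whether this overlap lowered its counts was not tested.

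The barcode filter asked for 500 or more genes and no more than 10% mitochondrial UMIs. DCs had at least 5 UMIs of Ccr7, Fscn1, Cacnb3, Ccl22, Nudt17 and Tbc1d4 and fewer than 2 of B and of T cell markers. A population was assigned where 1 hashtag held at least 80% of 10 or more hashtag counts; other DCs (112 MC903, 1267 untreated) were left out of the populations. No doublet caller was run: mixed hashtags and lymphocyte markers removed some doublets. UMIs were summed per population, scaled to CPM and compared as log2 ratios with exact conditional Poisson intervals, without pseudocount. The Langerhans-like gate also used 1 marker that is not reported here. Genes were called at 20 CPM in the higher group and 1.5-fold. Shares and floors cover counting error only.

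Genes with at least 20 CPM in a population were described with 4 values and the others by range; from wider lists up to 3 called genes each way were named. The genes, lists and gates were chosen with earlier results of these data known. The calculation was tested on simulated data. Python 3.11.15, scipy 1.17.1, R 4.3.3, Seurat 5.3.0 (HTODemux), edgeR 4.0.16 (TMM factors only) and DESeq2 1.42.0 (size factors only) were used. Alternatives covered hashtag rules, filters, scaling, thinning, gates and depth bands.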

Additional observations from a re-analysis of the deposited data

Results flagged for a closer look

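Sesn2 and Sdf2l1 differed between the captures in the Tesc/Tubb2b gate, with intervals on opposite sides of 0. The log2 ratio of the gate over other DCs was -0.72 in the MC903 and 0.62 in the untreated capture for Sesn2, and 0.31 in the MC903 and -0.62 in the untreated capture for Sdf2l1. The difference between captures was not tested, since each capture is 1 pool. Among cells of 1 depth band the Sesn2 ratios were -0.66 (MC903) and 0.39 (untreated, -0.62 to 1.25).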

How the results depend on the processing

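Counts of called genes were 0 or 1 in the 4 comparisons, so an alternative that adds 1 call moves them. For untreated BFP+ over untreated BFP- DCs (1 as reported) HTODemux populations and TMM scaling gave 0, at most 5% mitochondrial UMIs, thinning and leaving out cells with a Hspa1a or Hspa1b UMI gave 2, and the depth band gave 5. For MC903 BFP- over untreated BFP- DCs (0 as reported) 2 were called without Hspa1a or Hspa1b cells, and 1 with HTODemux, 5% mitochondrial UMIs, a higher gene minimum, no DC gate, a 10 CPM minimum, without the richest 1% of cells, without macrophage-list cells and in the depth band. For MC903 BFP+ over untreated BFP+ DCs (0) it was 2 with thinning, 1 with no gate, 1 without Hspa1a or Hspa1b cells and 3 in the depth band.

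For Langerhans-like DCs (0 in both captures) the MC903 count was 3 with thinning and 1 each with a further marker UMI, without barcodes over 50000 UMIs and without gland barcodes, and the untreated count was 2 with thinning and 1 in the depth band. MC903 over untreated gave 10 with thinning in the cDC1-like gate (3), 15 with thinning and 5 without the richest 1% of cells in the Cd209a/Mgl2 gate (9), and 1 in the depth band for no type gate (0). The median share of DCs with a UMI over the 32 genes was 9.04%, 9.12%, 9.46% and 10.7% thinned and 35.2%, 35.9%, 25.6% and 17.8% unthinned for MC903 BFP+, MC903 BFP-, untreated BFP+ and untreated BFP-. Of the called ratios 2 reversed, those for Nupr1 in the MC903 Cd209a/Mgl2 gate (-0.17 without macrophage-list cells, 0.85 as reported) and for Nupr1 in MC903 over untreated DCs of the Efnb2/Slamf1 gate (0.55 in the depth band, -0.88 as reported). Ratios that were not called took the other sign in 148 of 1246 cases, Sesn2 in untreated BFP+ over untreated BFP- DCs among them. The causes were not tested. Of the other values for single genes, 1463 stayed within the counting interval and 206 moved out of it.

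Depth limits the 9 genes under 20 CPM and the gates of under 100 cells. Depth bands, gland and macrophage settings were chosen after seeing the data. No paired analysis was possible because each population was 1 pool and the groups share fewer than 2 replicate numbers.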

Other observations

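The 112 MC903 DCs that no hashtag dominated had 52.0 CPM of BFP, between MC903 BFP+ and MC903 BFP- DCs, and 151 CPM of Hspa5. Their median depth was 16260 UMIs, with hashtag medians of 589 for BFP+ and 489.5 for BFP-. The 1267 untreated ones had a median of 2495 UMIs and hashtag medians of 55 and 74.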
